A study of Mus musculus with 6 samples.

Results

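The genes described here are the hypoxia-inducible factor (HIF) alpha subunits Hif1a and Epas1, the HIF prolyl hydroxylases Egln1 and Egln3, and HIF targets outside glycolysis, Bnip3, Bnip3l, Vegfa, Ndrg1 and Ankrd37. They were picked by symbol from a list of 10, of which 9 are among the 14526 genes of the table, and Adm was not analysed here. All 9 passed the filter on low values (a mean of 10 over the libraries) and so were among the 12568 genes tested. RNA sequencing had been done on NMuMG, a mouse mammary epithelial line that undergoes epithelial to mesenchymal transition under TGF-beta. All 6 libraries came from cells at day 4 of TGF-beta, and untreated cells were not analysed here. The 3 siNTC libraries were from cells transfected with a non-targeting control, and the 3 siMnt libraries from cells transfected with small interfering RNA against Mnt, which encodes a Max-binding transcriptional repressor. Transfection coincided with the start of TGF-beta, and both were renewed on day 2.

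HIF is a heterodimer of an oxygen-regulated alpha subunit and the stable partner Arnt. In normal oxygen the prolyl hydroxylases modify the alpha subunit, the von Hippel-Lindau protein binds it, and the proteasome destroys it; when oxygen is short the subunit accumulates and the dimer binds the core sequences ACGTG and GCGTG near its targets. Control is thus largely on the protein, and only RNA was measured here. Mnt with Max binds the E-box CACGTG, which holds ACGTG on both strands.

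Mnt itself was at 1316, 896 and 1596 normalised read counts in the siNTC libraries and at 613, 557 and 749 in the siMnt libraries, 50.4% of the control mean. Its log2 fold change was -0.96 ± 0.22 (SE, n = 3 per group; limma adjusted p = 0.0546, from 0.0014 to 0.225 over 19 alternatives), short of the threshold of 0.05 with all libraries and no block. With the replicate number as a block, which pairs the libraries, the adjusted p was 0.0044 (limma) and Mnt passed, as it did without siNTC replicate 3 (0.041). SiNTC replicate 3 stood apart. On the first principal component over all tested genes (60.8% of the variance) it lay at -0.81, against -43.0 and -52.3 for the other siNTC libraries and 29.4 to 35.5 for siMnt. The 9 genes and the counts over gene lists are therefore given with and without it. Of 9 listed mammary epithelial markers 6 were in the table, and Epcam, Cldn3 and Cldn7 were not. Among the 6 the luminal keratins Krt8 and Krt18 had the highest siNTC means, 38645 and 57047. Cldn4 had the lowest, 278.

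The largest differences between the groups among the 9 were in Ankrd37, Bnip3 and Egln3. Their siMnt means were 3.79, 3.43 and 2.42 times the siNTC means, and every siMnt library lay above every siNTC library. Egln1 and Bnip3l were also higher without overlap, by 1.38 and 1.29 times. Hif1a was lower without overlap, at 84.8% of control, and Epas1, Vegfa and Ndrg1 overlapped. The genes were chosen with this contrast known, so their differences are a description and carry no test. For reference, in the fit across all tested genes 3 of the 9 (Ankrd37, Bnip3 and Egln3) were higher at an adjusted p under 0.05 (limma) and 0 were lower, where 2.56% of all tested genes were higher and 1.37% lower. Groups that did not overlap were seen for 5 of the 9 upward and 1 downward, against 15.6% and 15.9% of tested genes (31.5% in all). Nothing is read from these shares, because the contrast was used in the choice. With the replicate number as a block Epas1 and Egln1 joined, making 5 of 9 (9.33% of tested genes were higher and 6.56% lower in that fit), and without siNTC replicate 3 Epas1 joined, making 4 (9.51% of tested genes higher and 6.50% lower). Bnip3l joined in DESeq2 with all libraries and, in limma, with correction for GC content and transcript length, making 4 each time. These fits called 11.6% and 7.93% of all tested genes in either direction. Leaving out siNTC replicate 1, or replicate 1 or 2 of siMnt, left 0 of the 9 called by limma (5, 4 and 5 at an unadjusted p under 0.05) and by edgeR, and 3 each by DESeq2. Of all 12568 tested genes limma and edgeR called 0 in these fits, and DESeq2 710, 447 and 554. Ankrd37 dropped out without siNTC replicate 2, leaving 2 of 9, and Egln3 without siMnt replicate 3, also leaving 2. In these fits 139 and 79 of all 12568 tested genes were higher. The median log2 fold change of the 9 was 0.49, beside -0.01 over all tested genes. In bulk RNA, a change in the share of cells that express a gene and a change in RNA per cell cannot be told apart.

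**Figure D1:**
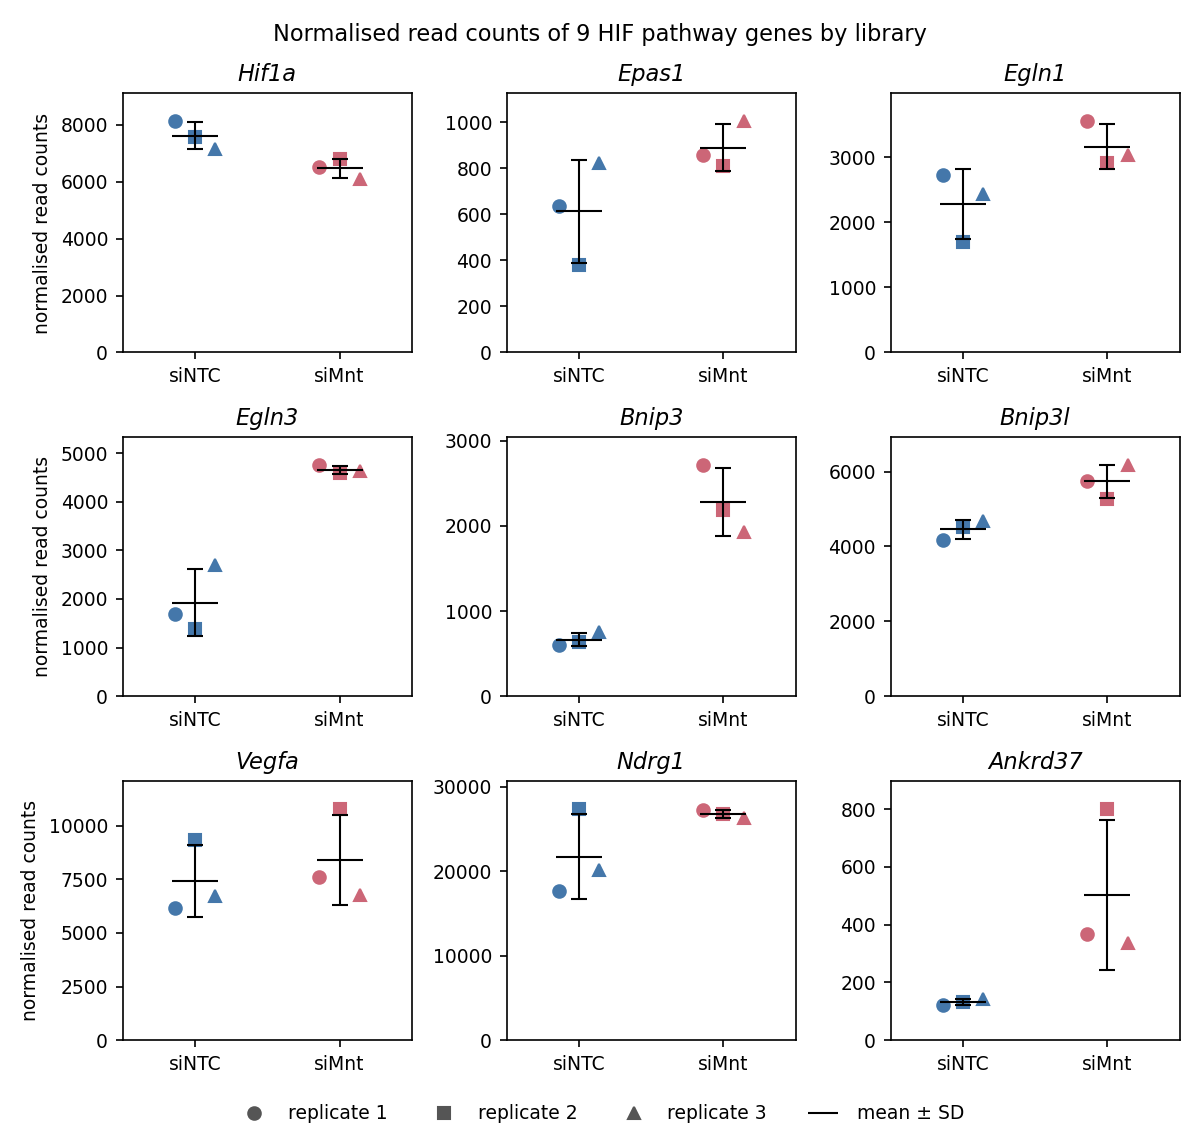
Normalised read counts (y axis, linear from 0) of the 9 genes in the 3 siNTC and 3 siMnt libraries. Symbols mark replicate numbers and black bars the mean ± SD; for Ankrd37, Bnip3 and Egln3 the siMnt points lie clear of the siNTC points, while Vegfa and Ndrg1 overlap.

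Hif1a encodes the broadly expressed alpha subunit. It held 8129, 7589.6 and 7163 normalised read counts in siNTC replicates 1, 2 and 3 and 6523, 6786 and 6096 in siMnt replicates 1, 2 and 3 (7627 ± 484 and 6468.5 ± 348, SD, n = 3 each). All siMnt values lay below all siNTC values, by a narrow margin: the log2 fold change, siMnt minus siNTC of log2(value + 1), was -0.24 ± 0.11 (SE), and -0.28 without siNTC replicate 3. Hif1a was alone among the 9 in having a negative value. Epas1 encodes HIF-2 alpha, the paralog first described in endothelium. Its siNTC libraries held 637, 379 and 820.4 and its siMnt libraries 855, 809 and 1004 (612 ± 222 and 889 ± 102). The siMnt library with the least Epas1 lay just under siNTC replicate 3, the highest control. The log2 fold change was 0.60 ± 0.26, or 0.85 without siNTC replicate 3. Within replicate numbers 1, 2 and 3 the differences were 0.43, 1.09 and 0.29, and without siNTC replicate 2, the lowest library, the log2 fold change was 0.29.

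The prolyl hydroxylases are themselves induced by HIF and form a feedback on it. Egln1, which encodes PHD2, the main HIF hydroxylase in most cells, was at 2737, 1695 and 2434 in siNTC and at 3557, 2909 and 3030.4 in siMnt (2289 ± 536 and 3166 ± 345). The groups were separate but close, the lowest siMnt library being 1.06 times the highest siNTC library. The log2 fold change was 0.49 ± 0.19, 0.55 without siNTC replicate 3 and 0.29 without siNTC replicate 2. Egln3, which encodes PHD3, the more strongly hypoxia-inducible of the pair, was at 1686, 1383 and 2697 in siNTC and at 4754, 4598 and 4622 in siMnt (1922 ± 688 and 4658 ± 84.3). The coefficient of variation was 1.81% over the siMnt libraries and 35.8% over the siNTC libraries, replicate 3 being the highest of these. Its log2 fold change was 1.33 ± 0.22, and 1.61 without that library. Within replicate numbers the differences were 1.50, 1.73 and 0.78.

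Bnip3 and Bnip3l encode related BH3-domain proteins of the outer mitochondrial membrane that act as receptors for the removal of mitochondria by autophagy. Bnip3 was at 600.0, 640.2 and 749 normalised read counts in siNTC and at 2714, 2186 and 1929 in siMnt (663 ± 76.9 and 2276 ± 400.3). The controls varied little, and the lowest siMnt library was 2.58 times the highest control. The log2 fold change was 1.77 ± 0.16, and 1.86 without siNTC replicate 3. By replicate number the normalised level in siMnt was 4.52, 3.41 and 2.58 times that of its siNTC counterpart. Bnip3l was more abundant and differed less, at 4185, 4530.3 and 4669 in siNTC and at 5759, 5275 and 6175 in siMnt (4461.5 ± 249 and 5736 ± 450.2). Its lowest siMnt library was 1.13 times the highest control, and its log2 fold change was 0.36 ± 0.11 (0.39 without siNTC replicate 3).

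Ankrd37 encodes a small ankyrin-repeat protein induced by hypoxia. It was the least counted of the 9 in controls and had the largest log2 fold change, at 122, 131 and 143 in siNTC and 367, 801 and 337 in siMnt (132 ± 10.6 and 501 ± 259.6). The low controls were tight, and siMnt replicate 2 stood well above the other siMnt libraries, so the siMnt coefficient of variation was 51.8%. The log2 fold change was 1.80 ± 0.32, or 1.86 without siNTC replicate 3 and 1.41 without siMnt replicate 2. Between 118 and 671 reads underlay each Ankrd37 value, the fewest of the 9 genes. In the GENCODE M21 annotation its exons overlap those of Ufsp2 and Lrp2bp on the other strand, and the sources used here do not say whether counting used strand. Ufsp2 was at 1108 ± 188 and 1049.5 ± 57.3 and Lrp2bp at 5.66 ± 2.97 and 10.4 ± 2.31, both with overlapping groups. How many reads of these genes were counted for Ankrd37 was not tested.

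Vegfa encodes the angiogenic ligand VEGF-A, a classical HIF target. It was at 6179, 9363 and 6748 in siNTC and at 7617, 10796 and 6791 in siMnt (7430.2 ± 1698 and 8402 ± 2115). Replicate 2 was highest in both groups, and the groups overlapped widely. The log2 fold change was 0.17 ± 0.22, and 0.11 without siNTC replicate 3. Ndrg1 encodes a stress-response protein that is strongly induced by hypoxia and by low iron. It was at 17687, 27409 and 20142 in siNTC and at 27244, 26775 and 26363 in siMnt (21746 ± 5056 and 26794 ± 441). The siMnt libraries were nearly equal, and siNTC replicate 2 lay above all of them. The log2 fold change was 0.33 ± 0.18, and leaving out siNTC replicate 1, 2 or 3 gave 0.19, 0.51 or 0.28.

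**Figure D2:**
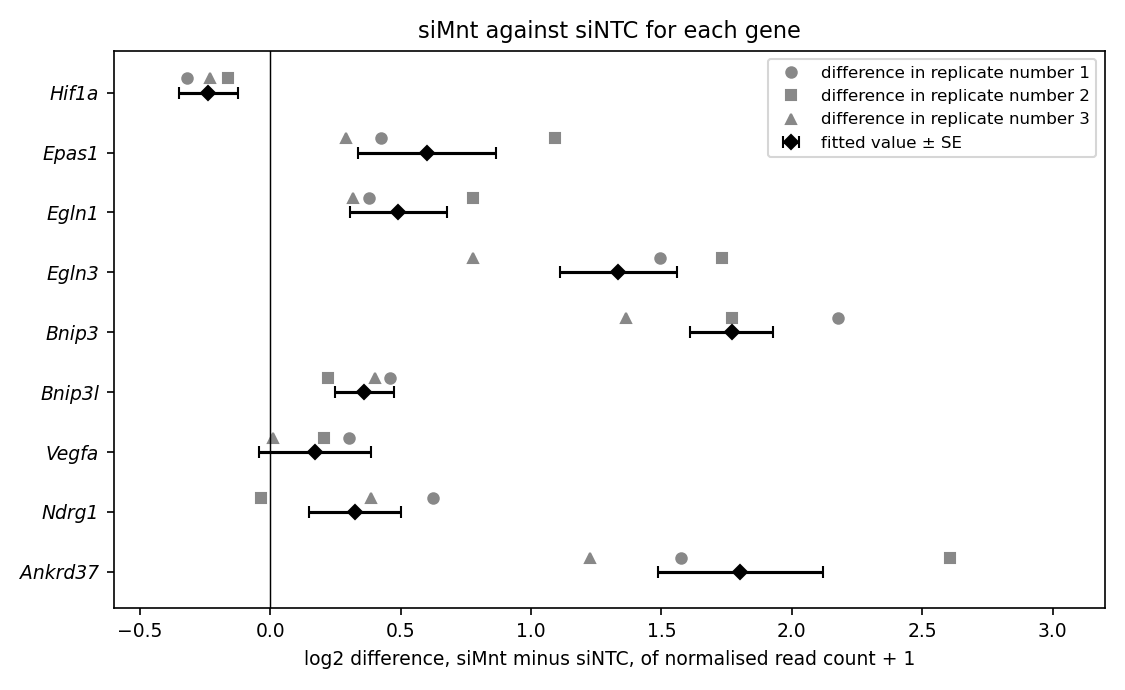
Log2 difference between siMnt and siNTC (x axis) for each gene, as the fitted value with its standard error (black) and as the difference within each replicate number (grey). Bnip3, Ankrd37 and Egln3 lie to the right in every replicate number, Hif1a lies left of 0 in every one, and Ndrg1 lies on both sides of 0.

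Promoter sequences are shown for the genes with the largest differences and for Hif1a, to set the HIF core and the E-box beside the values. RefSeq promoters (build GRCm38.p6) were found for 6 of the 9 genes, Hif1a, Egln1, Egln3, Bnip3, Vegfa and Ankrd37, and the 250 bases before each annotated start were searched on both strands. Capitals mark ACGTG or its reverse complement, and the whole of CACGTG where that is present. The submitters' notes name build mm9 for the reads, and the table gives no coordinates.
Bnip3, chr7:138909507-138909756, minus strand: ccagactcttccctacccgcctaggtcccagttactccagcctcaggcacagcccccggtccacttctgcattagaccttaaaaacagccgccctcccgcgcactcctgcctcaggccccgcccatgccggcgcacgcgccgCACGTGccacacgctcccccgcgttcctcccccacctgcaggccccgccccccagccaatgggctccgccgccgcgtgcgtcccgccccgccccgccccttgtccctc
Hif1a, chr12:73907617-73907866, plus strand: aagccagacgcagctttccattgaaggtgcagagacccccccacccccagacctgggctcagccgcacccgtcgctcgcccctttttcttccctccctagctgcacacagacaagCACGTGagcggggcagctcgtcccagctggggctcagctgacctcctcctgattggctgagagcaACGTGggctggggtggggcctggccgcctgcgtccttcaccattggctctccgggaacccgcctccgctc
Ankrd37, chr8:45999851-46000100, minus strand: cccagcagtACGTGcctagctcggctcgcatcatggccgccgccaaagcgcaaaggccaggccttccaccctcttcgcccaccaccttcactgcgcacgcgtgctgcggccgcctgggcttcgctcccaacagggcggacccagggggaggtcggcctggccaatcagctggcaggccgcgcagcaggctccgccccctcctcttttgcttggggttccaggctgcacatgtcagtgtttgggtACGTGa
Egln3, chr12:54203875-54204124, minus strand: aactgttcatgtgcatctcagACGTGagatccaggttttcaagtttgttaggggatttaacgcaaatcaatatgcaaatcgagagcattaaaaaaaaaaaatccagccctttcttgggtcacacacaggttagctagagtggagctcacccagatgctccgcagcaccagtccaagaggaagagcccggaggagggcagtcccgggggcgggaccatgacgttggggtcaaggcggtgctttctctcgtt
The E-box CACGTG was present in Bnip3, beginning 108 bases before the start, and in Hif1a, beginning 135 bases before it. Bnip3 was higher in siMnt. Hif1a was lower by a narrow margin and did not pass (limma adjusted p = 0.248, or 0.157 with the replicate block). Whether the E-box had a part in either difference was not tested. ACGTG outside an E-box was present in Hif1a at 70 bases before the start, in Ankrd37 at 241 and 6, in Egln3 at 229 and in Egln1 at 68, counted to the first base of the match. Vegfa has 2 annotated starts, and ACGTG was found before the downstream one, 211 bases from it, and in no place before the upstream one. The window before the downstream start lies inside the gene, and the match there falls in bases that encode VEGF-A. Thus 6 of 6 genes had ACGTG before a start, Vegfa only in coding sequence, against 21.3% of the 12645 promoters of tested genes. CACGTG was present in 2 of 6, against 8.12%. GCGTG was present in 4 of 6, Egln1, Bnip3, Vegfa (again only before the downstream start, in the same coding stretch) and Ankrd37, against 44.1%. The 6 genes had 7 promoters in all, so these counts per gene are not on the same scale as the shares per promoter. These matches are letters in a window and were not tested as binding sites.

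Ratios between related genes within a library differed between the groups. They were taken between levels per kilobase of the longest coding transcript in GENCODE M21. The choice of transcript scales all 6 libraries alike, but the order between genes depends on it. The ratio of Epas1 to Hif1a was 0.067, 0.043 and 0.098 in siNTC and 0.112, 0.102 and 0.141 in siMnt, so Hif1a remained the more abundant alpha subunit RNA throughout. Egln3 stood to Egln1 as 0.831, 1.10 and 1.50 in siNTC and as 1.80, 2.13 and 2.06 in siMnt. The order of these hydroxylase RNAs was thus mixed among controls, with Egln3 below Egln1 in replicate 1, while Egln3 was above in all siMnt libraries. Without division by length Egln3 was below Egln1 in siNTC replicates 1 and 2, and again above in all siMnt libraries. Bnip3 stood to Bnip3l as 0.266, 0.262 and 0.298 in siNTC and as 0.875, 0.769 and 0.580 in siMnt. In none of these ratios did the groups overlap, and, being made from the same contrast, they carry no test. On the same per-kilobase scale the order of levels in siNTC, from the highest, was Ndrg1 (7527 ± 1750), Vegfa (2153 ± 492), Hif1a (1615 ± 102), Bnip3l (1369 ± 76.4), Egln3 (722 ± 258), Egln1 (637 ± 149), Bnip3 (378 ± 43.8), Ankrd37 (143 ± 11.5) and Epas1 (111 ± 40.2). Egln3 and Egln1, and likewise Ankrd37 and Epas1, lay within their spread of each other. In siMnt Bnip3 (1296 ± 228) stood above Egln1 (881 ± 95.9), and Bnip3l (1760 ± 138) and Egln3 (1749.8 ± 31.7) were level.

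**Figure D3:**
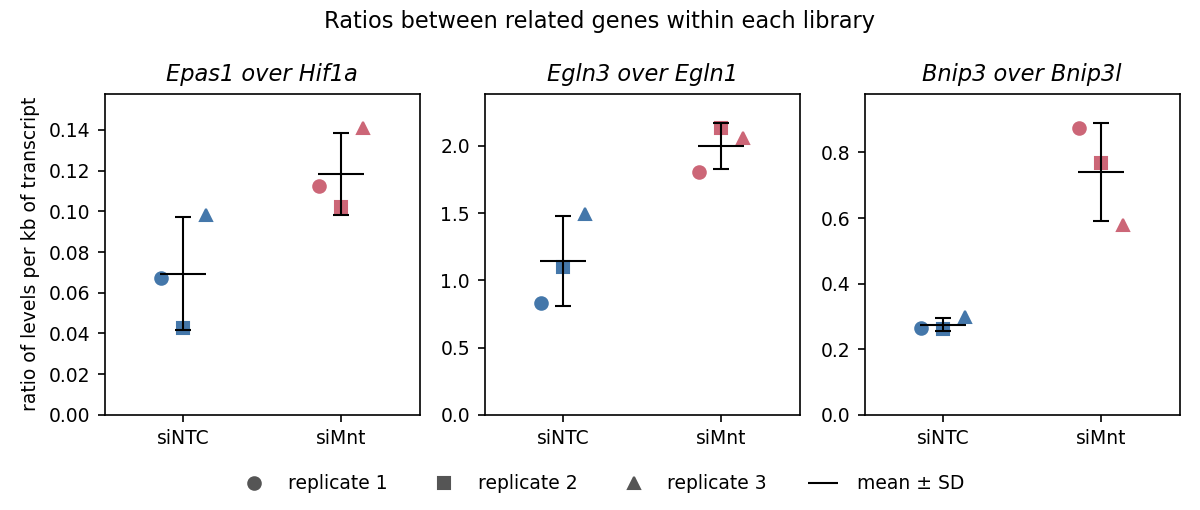
Ratio of the per-kilobase levels of Epas1 to Hif1a, Egln3 to Egln1 and Bnip3 to Bnip3l (y axes, linear from 0) in each library. Symbols mark replicate numbers and black bars the mean ± SD; all siMnt ratios lie above all siNTC ratios in each panel.

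In the rest of the oxygen-sensing machinery 1 gene passed. Of 22 listed genes 20 were in the table and 19 were tested: 1 rose, 0 fell and 18 did not pass, where 3.93% of all tested genes passed in either direction, and the list median was 0.03. The gene that rose was Usp20, a deubiquitinase known to act on HIF-1 alpha, from 716, 619 and 1077 to 1494, 1526 and 1499 normalised read counts (log2 fold change 0.95 ± 0.20, limma adjusted p = 0.0439). It was not called by edgeR, which called 0 of the list with 4 at an unadjusted p under 0.05. The partner Arnt was at 2474 and 2739 (adjusted p = 0.488), the ubiquitin ligase subunit Vhl at 912 and 974 (adjusted p = 0.665), and the third prolyl hydroxylase Egln2 at 861 and 1022 (adjusted p = 0.299), all 3 looked at outside the rule. With the replicate block the asparaginyl hydroxylase Hif1an (2617 ± 510.2 and 3711 ± 411) also rose and the elongin Eloc (3903 ± 1031 and 2532 ± 152) fell, making 2 up and 1 down, where 15.9% of all genes passed. Without siNTC replicate 3 the counts were 2 up and 2 down (16.0% of all genes passed), and leaving out any of the other 5 libraries gave 0 in limma, with 2 or 3 at an unadjusted p under 0.05, and 0 in edgeR and 1 in DESeq2.

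Among the other HIF targets outside glycolysis, Gbe1 and Gys1 of glycogen synthesis, the oxidase Ero1l and the mitochondrial Fam162a and Higd1a were among those that rose. Of 48 listed genes 42 were in the table and 40 were tested: 11 rose, 0 fell and 29 did not pass, beside 2.56% of all tested genes higher and 1.37% lower, and the list median was 0.27. The 4 with the smallest adjusted p (limma) were as follows. Gbe1, the glycogen branching enzyme, rose from 577, 482 and 693 to 1267, 1271 and 1273 (log2 fold change 1.14 ± 0.15, adjusted p = 0.0168). Fam162a, a mitochondrial protein induced by HIF-1, rose from 3176 ± 294 to 5545.5 ± 285 (0.81 ± 0.12, adjusted p = 0.0196). The endoplasmic reticulum oxidase Ero1l rose from 1369 ± 146 to 2839.5 ± 479.9 (1.04 ± 0.15, adjusted p = 0.0206). Selenbp1, a selenium-binding protein less established as a HIF target than the others, rose from 148, 165 and 499 to 1350.5, 1558 and 1277 (2.59 ± 0.41, adjusted p = 0.0242), its siNTC replicate 3 being the highest control. The other 7, chosen for mention with their values in view, were the carbonic anhydrase Car12, the collagen prolyl hydroxylase P4ha2, the histone demethylase Kdm4b, the Max-binding repressor Mxi1, the mitochondrial Higd1a, the glycogen synthase Gys1 and the lipoprotein receptor Vldlr, with log2 fold changes from 0.55 (Gys1) to 1.31 (Car12). Other well-known targets did not pass: Plin2 was at 14381 and 7059 (limma adjusted p = 0.0807) and Car9 was low, at 13.7 and 15.7 (limma adjusted p = 0.863). Those that did not pass went both ways, with log2 fold changes of -0.46 for Hilpda and 0.32 for Kdm3a. DESeq2 with all libraries called 12 of the list higher and 3 lower, where it called 11.6% of all tested genes in either direction. With the replicate block 14 rose and 5 fell, Plin2, Edn1, Pdgfb and Dusp1 among the 5, where 9.33% of all tested genes rose and 6.56% fell. When siNTC replicate 3 was left out 14 were called higher and 3 lower, beside 9.51% and 6.50% of all tested genes. The list had 6 that rose without siNTC replicate 2, and 1 without siMnt replicate 3, where 139 and 79 of all 12568 tested genes were higher. Leaving out siNTC replicate 1, or replicate 1 or 2 of siMnt, gave 0 in limma (15, 16 and 17 at an unadjusted p under 0.05) and in edgeR, and 13, 8 and 13 in DESeq2. In these fits DESeq2 called 710, 447 and 554 of all 12568 tested genes. For comparison, 7 of 20 tested glycolytic HIF targets rose and 0 fell, with a list median of 0.50, Ldha, Aldoa, Pgk1 and Aldoc having the smallest adjusted p (0.02, 0.0221, 0.0226 and 0.0316). That count was 9 with the replicate block or without siNTC replicate 3 and 4 without siNTC replicate 2. It was 0 in limma without siNTC replicate 1 or without any 1 of the siMnt libraries (10 to 14 at an unadjusted p under 0.05), 0 in edgeR and 11 in DESeq2. DESeq2 called 447 to 902 of all 12568 tested genes in these fits.

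**Figure D4:**
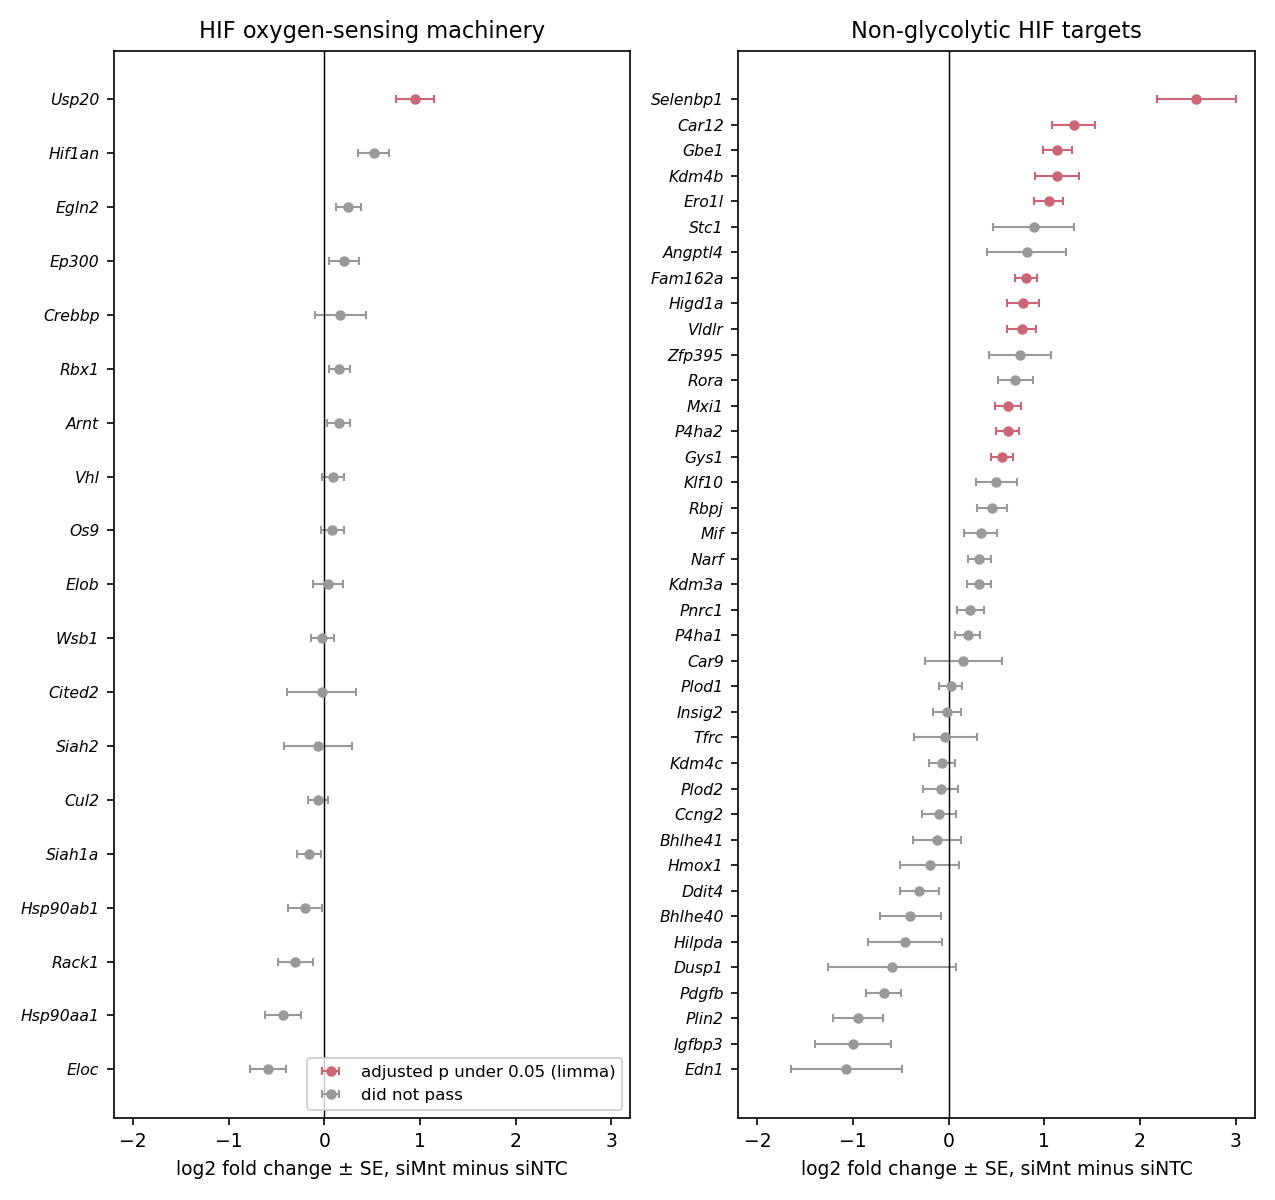
Log2 fold change with its standard error (x axis) of the 19 tested genes of the oxygen-sensing machinery (left) and of 39 of the 40 tested HIF targets outside glycolysis (right), ordered by value. Red points passed an adjusted p of 0.05 (limma): 1 of 19 on the left and 11 of 39 on the right, with no red point below 0.

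Among genes that work with the targets, none passed in limma with all libraries and no block. With all libraries DESeq2 called 11.6% of all tested genes in either direction. Of 28 tested mitophagy and BCL2 family genes, the functional neighbours of Bnip3 and Bnip3l, limma called 0, with 4 at an unadjusted p under 0.05. The same was seen in edgeR, while DESeq2 called 2, and the list median was 0.01. The most abundant of the 28, the autophagy adaptor Sqstm1 and the survival factor Mcl1, were at 15581 ± 5127 and 11642 ± 1553.5 and at 7374 ± 1293 and 7858 ± 473. With the block 2 rose and 2 fell, where 15.9% of all tested genes passed, and without siNTC replicate 3 limma called 1 higher and 1 lower, where 16.0% passed. Of 7 tested VEGF family ligands and receptors limma called 0, with 4 at an unadjusted p under 0.05, and so did edgeR, while DESeq2 called 1, and the coreceptors Nrp1 and Nrp2 were at 6768 ± 1818.5 and 6544 ± 1409.7 and at 2514 ± 586 and 3399 ± 495. With the block 3 rose and without siNTC replicate 3 limma called 2 higher, where 9.33% and 9.51% of all tested genes rose, and the list median was 0.45. Of the NDRG family, Ndrg3 was at 1579 ± 33.8 and 1895 ± 157 and Ndrg4 at 200.3 ± 16.5 and 172 ± 42.2, and neither passed in limma, edgeR or DESeq2 with all libraries (1 had an unadjusted p under 0.05) or without siNTC replicate 3 (0 had). Of 6 listed genes of the adrenomedullin system only 1, the receptor modifier Ramp3, was in the table. Ramp3 was low, at 30.6, 26.6 and 45.2 in siNTC and at 66.0, 82.3 and 67.4 in siMnt (log2 fold change 1.08 ± 0.28, limma adjusted p = 0.0718), and rose with the block (0.0358) and without siNTC replicate 3 (0.0162).

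The genes closest in pattern were found from the root mean square difference of log2(value + 1) over the 6 libraries, each gene centred on its own mean. These genes were picked for the smallest differences, so they lie below the median by choice. The median gives a scale only and does not test likeness. The difference between siMnt and siNTC is itself part of the measure. For Ankrd37 the closest were Atp2c2, Ppargc1a and Nqo1, at 0.18, 0.25 and 0.28, beside a median of 1.01 over all tested genes. Atp2c2 was low, at 10.8 ± 1.04 normalised read counts in siNTC and 38.5 ± 11.2 in siMnt. For Hif1a the closest were Iars2, Cep120 and Rfc1, at 0.03 each, beside a median of 0.26. Their log2 fold changes were between -0.24 and -0.18. For Epas1 the closest were Zc3hav1l, Cables2 and Camsap3, at 0.04, 0.06 and 0.07, beside a median of 0.52. The gene nearest to Egln3 was Car12 (0.06), which is itself among the listed HIF targets and was looked at after its values were seen.

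Markers of other cell types moved with the groups in part. Of 8 listed macrophage markers 6 were in the table and 4 were tested. Of these 3 rose, Csf1r (945 ± 226 and 1975 ± 110.0), Mpeg1 and Itgam, where 2.56% of all tested genes rose. The other tested marker, Cd68, did not pass, at 190 ± 67.8 and 164 ± 45.8 (limma adjusted p = 0.765). The summed level of the 6 markers in the table was 977 to 1366 normalised read counts in siNTC and 2212 to 2653 in siMnt. Ptprc, the leukocyte common antigen that defines the lineage, was near 0 in both groups, at 3.81 ± 2.69 and 3.09 ± 0.58. Of 5 adipocyte markers 2 were tested and 1, Fabp4, rose, the summed level being 11.4 to 38.1 in siNTC and 62.5 to 90.7 in siMnt. The 3 macrophage markers and Fabp4 were also called with the block, and again when siNTC replicate 3 was left out. In limma none of the 4 passed without siNTC replicate 1 or siMnt replicate 1 or 2, although all 4 had an unadjusted p under 0.05. The macrophage count was 2 without siNTC replicate 2 and 1 without siMnt replicate 3. In those last fits 139 and 79 of all 12568 tested genes were higher. Of 2 tested endothelial markers limma called 0, with 1 at an unadjusted p under 0.05, as did edgeR with 2, while DESeq2 called 1 (and 11.6% of all tested genes). The 2 differed in opposite directions. The endothelial cadherin Cdh5 was at 80.1 ± 16.4 and 40.4 ± 7.81 without overlap, and fell with the block (limma adjusted p = 0.0435). Vwf was low, at 14.9 ± 3.03 and 26.2 ± 5.85, higher in siMnt without overlap, and did not pass with the block (limma adjusted p = 0.186). Of 3 tested fibroblast markers limma, edgeR and DESeq2 called 0, with 0, 1 and 0 at an unadjusted p under 0.05. Of 6 tested mammary epithelial markers limma called 0, with 2 at an unadjusted p under 0.05, as did edgeR, while DESeq2 called 1. With the block the epithelial cadherin Cdh1 (7543 ± 2429 and 10572 ± 729.6) rose and the claudin Cldn4 (278 ± 204 and 82.4 ± 18.3) fell. Without siNTC replicate 3 limma called 1 mammary epithelial marker higher and 2 lower, 1 endothelial and 1 of 2 tested basal markers lower, and 0 fibroblast markers. In that fit 9.51% of all tested genes were higher and 6.50% lower. With all libraries the basal markers had 0 calls in limma, edgeR and DESeq2, and 0 at an unadjusted p under 0.05. No listed marker in the table was at 0 in all 6 libraries. The part of these markers in the levels of the HIF genes was not tested.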

How the data were processed

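The authors deposited 1 table of normalised signal for 14526 genes in 6 libraries. Per the submitters' processing notes, TopHat2 2.1.0, DESeq2 and build mm9 were used; the sources used here give no read counter, annotation, use of strand, treatment of multi-mapping reads or filter. From the values, each is a read count divided by 1 factor per library: after division by the value of 1 read, 99.7% of nonzero values were whole to within 0.05 read. Recovered totals were 24767602 to 42193291 reads in siNTC and 22323050 to 25666005 in siMnt. No library was a copy of another (mean chi-square per gene between replicates, 15.2 or more).

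Genes with a mean under 10 were left out (1958), and 12568 were tested on log2(value + 1), in which the added 1 understates folds of low genes. The fit was made with limma 3.58.1 in R 4.3.3 (empirical Bayes with a trend, no block) and Benjamini-Hochberg adjustment. Whether replicates were separate cultures is not in the labels, and p-values then reflect the spread of these 6 samples alone, perhaps a technical one. Deviations of same-numbered libraries from their group means correlated across genes at 0.28, 0.50 and 0.35, so the replicate number from the titles was taken to pair them, and a fit with it as a block was an alternative. The main fit and the fits without 1 library leave this pairing out. A gene that did not pass in them can therefore pass with the block. Other alternatives were pseudocounts, filters, scalings, loess correction of GC content and transcript length (GENCODE M21, 98.5% of genes matched), edgeR 4.0.16 and DESeq2 1.42.0 on recovered reads, and leaving out each library. Scripts were tested on simulated data.

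Members and gene lists were chosen with earlier results of these data known. Genes named are the members, Mnt, per list and direction the 4 genes of smallest adjusted p among those that passed or, where none passed, its 2 most abundant, and the 3 nearest in pattern to Ankrd37, Hif1a and Epas1. Other genes named from the lists, the markers and the genes overlapping Ankrd37 fall outside this rule and were chosen with their values in view. The values of 1 listed gene are not reported here, though it stays in its list's counts.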

Additional observations from a re-analysis of the deposited data

How the results depend on the processing

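The log2 fold changes of the 9 HIF genes moved by less than the replicate spread in 153 of 153 comparisons with an alternative. Much of this was fixed in advance, so the count is no measure of robustness. With 3 libraries per group, leaving out 1 cannot move a value by as much as that spread. The filters and the replicate block leave the log2 fold change itself unchanged. The 1 value that changed sign was that of Vegfa, which lay between -0.023 and 0.35 when each library was left out, negative without siMnt replicate 2. Their count of calls, 3 with all libraries, was 5 with the replicate block, 6 with the GC and length correction and the replicate block, and 0 to 4 when each library was left out. The count over all genes, 494, was 322 with a minimum mean of 50, 306 without a trend, 1998 with the replicate block, 1457 by DESeq2, 997 with the GC and length correction, 2399 with that correction and the replicate block, 1336 at an adjusted p under 0.1, and 0 to 2012 when each library was left out (0 without replicate 1 of siNTC or replicate 1 or 2 of siMnt, with 2193, 1816 and 1920 at an unadjusted p under 0.05, 0 called by edgeR and 710, 447 and 554 by DESeq2). For the oxygen-sensing machinery the count of 1 was 0 with a minimum mean of 50, without a trend or by edgeR, 2 by DESeq2 or with the GC and length correction, 3 with the replicate block alone or with that correction, and 0 to 4 when each library was left out. For the other HIF targets the count of 11 was 4 without a trend, 19 with the replicate block alone or with the correction, and 0 to 17 when each library was left out. Among tested genes outside the 9, neither of which passed, Mcl1 lay between -0.041 and 0.21 and Nrp1 between -0.28 and 0.16 when each library was left out, and Nrp1 was 0.0036 with quantile normalisation. The alternatives for the genes named from the lists and for the marker lists were added after seeing the data. The cause of these changes was not tested.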
